A study of Mus musculus with 2 samples.

Results

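Cultured mouse embryonic fibroblasts (MEF) were stimulated with serum for 1 h, and the level of each mRNA in THOC5-depleted cells was compared with that in control cells. The level was read from Cy5, the red channel of 2 dual-color Agilent arrays, and the green channel, Cy3, held the unstimulated cells of the same condition. A gene entered the comparison when it had a symbol and when its brightest probe was called well above background in both channels of both arrays. Of the 28312 genes with a symbol on the array, 17240 (60.9%) met this rule. The remaining 11072 genes comprised 8970 that were above background in no channel, 240 that were above it in Cy5 on both arrays but not throughout Cy3, 530 with Cy5 above it on the control array alone, 696 with Cy5 above it on the THOC5-depleted array alone and 636 seen in Cy3 alone.

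Both conditions came from immortalized MEF of the C57BL/6 x B6:129 Ola background that carried Rosa26ERT2 Cre and THOC5 (flox/flox). Cre in these cells is expressed from the Rosa26 locus, which is active in most cell types, and it enters the nucleus upon tamoxifen. Cells labelled as THOC5 knockdown had tamoxifen for 2 days by the labels (the methods give a shorter exposure followed by growth medium), whereas cells labelled as wildtype carried the same floxed alleles and the same Cre without tamoxifen. According to the methods both were starved of serum before stimulation. There was 1 array for each condition. The labels do not say how the cultures were separated, no array had exchanged dyes, and the effects of tamoxifen itself, of the culture and of the position on the slide cannot be told apart from the loss of THOC5. No p-value or standard error between conditions is therefore given, so the precision of a difference rests on 1 array a side.

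THOC5 is a subunit of the THO complex. THO joins an RNA helicase and export adaptors in TREX, which loads onto nascent transcripts and links transcription to mRNA processing and nuclear export. When starved fibroblasts receive serum, growth factor receptors switch on immediate early genes within minutes. The first products are transcription factors such as Fos, Jun and Egr proteins, followed by secreted factors, proteases and inhibitors that feed back on the signal. Many genes of resting cells are turned down at the same time.

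The signals given here are the processed signals of the scanner software after quantile scaling of the mean log signal between the arrays, which keeps the Cy5/Cy3 ratio of each array. They have no absolute unit. Apart from sums over cell type markers and shares by brightness, they are not compared between genes. Each array had 43020 spots besides control spots, of which 62.1% (control) and 62.6% (THOC5-depleted) were well above background in Cy5. For 260 bright probes printed as 10 spots, the median SD between spots of the log2 Cy5 signal was 0.049 on either array, a spread that covers error within an array only. The 12 fibroblast markers examined, among them Col1a1, Vim and Pdgfrb, were above background in Cy5 on both arrays. Of 6 to 8 markers each for epithelial, endothelial, blood, muscle and neural cells, 3 to 5 were above it on both arrays. Some of these were bright. Itgam had Cy5 signals of 7283 (control) and 9686 (THOC5-depleted). Snap25 had 5896 and 7779, Tubb3 had 3482 and 3955, and Acta1 had 3269 and 4626. Others, such as Cdh1, Lyz2, Tek and Olig2, were above background on neither array. Of 5 pluripotent markers 3 were above it on both arrays, and of 5 adipocyte markers 1 was. In such bulk RNA, fewer cells of a type and less RNA per cell cannot be told apart.

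Thoc5 was examined first, by a probe at chr11:4828807-4828866 (mm9). Its Cy5 signal was 2710 in control and 503 in THOC5-depleted cells, a difference of -2.43 on the log2 scale. In unstimulated cells the signals were 4276 and 603. Thoc5 was thus among the 15 lowest genes of the stimulated comparison, in the direction given by the labels.

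Differences between the stimulated samples were limited to a small part of the transcriptome. Across the 17240 genes the median log2 difference was -0.0011 with an SD of 0.41 between genes, and 76.6% of genes lay within 1.3-fold. A difference of 2-fold or more was called, without a test. On this basis 280 genes were lower (1.62% of those compared) and 277 were higher (1.61%) in stimulated THOC5-depleted cells. In the same way, 247 genes (1.43%) were lower and 214 genes (1.24%) were higher in unstimulated cells. The balance of lower and higher genes in Cy5 depended on the scaling. With each channel set to its 75th percentile the counts were 235 and 366, so that 39.1% of the called genes were lower in place of 50.3%. Without any scaling, which moves the median difference to -0.26, they were 522 and 149. When 10 spike-in probes were set to no difference, a choice made after seeing the data, the median moved to -0.41 and the counts were 859 and 90. Fes just passed the limit and Apod just missed it, both with a difference that rounds to -1.0.

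**Figure D1:**
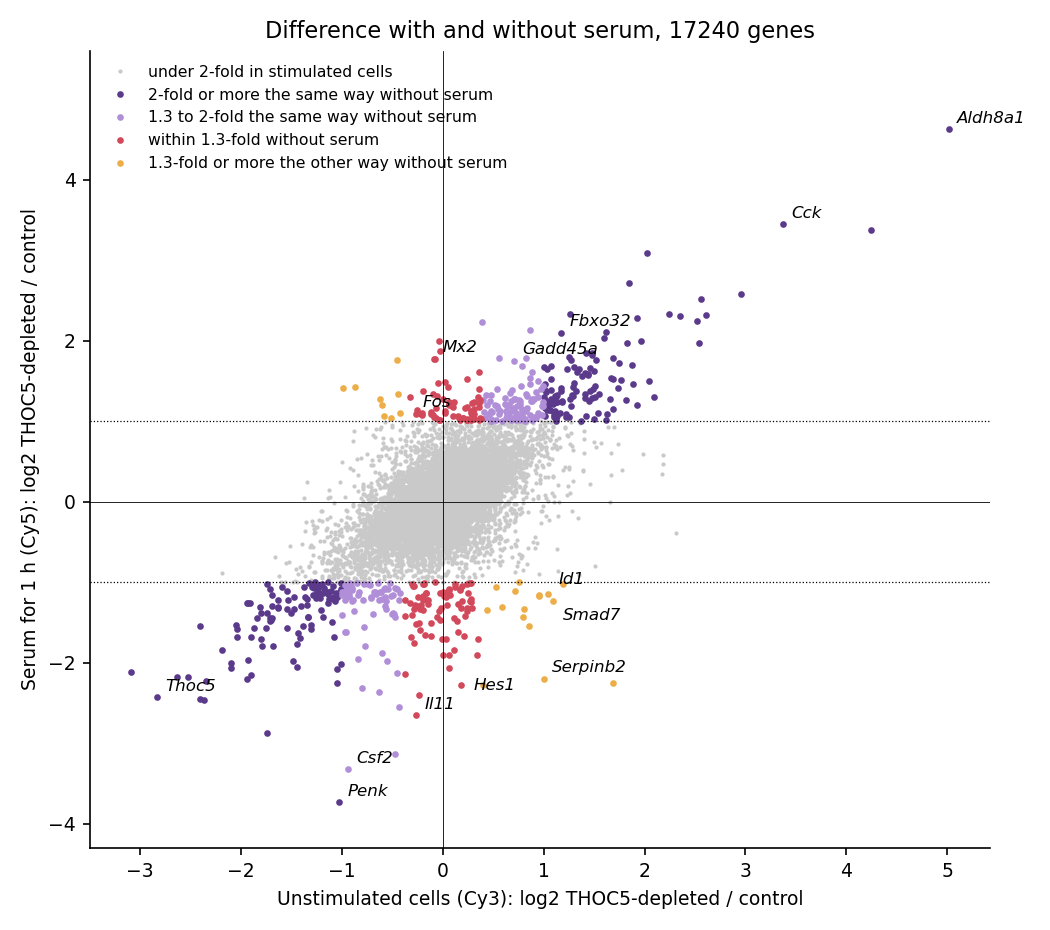
Log2 difference of THOC5-depleted over control in stimulated cells (Cy5, vertical) against that in unstimulated cells (Cy3, horizontal) for 17240 genes, 1 array per condition. Dotted lines mark 2-fold in Cy5, and colours separate the 280 lower and 277 higher genes by their difference without serum. Thoc5 is low on both axes, Serpinb2, Id1 and Smad7 lie to the right and below, and Aldh8a1 and Cck are high on both.

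The differences in stimulated cells were then separated by what was already present without serum. Of the 280 lower genes, 110 were also lower by 2-fold or more in Cy3, 72 were partly lower (1.3 to 2-fold), 82 were level (within 1.3-fold) and 16 were opposite, that is, 1.3-fold or more higher without serum. Of the 277 higher genes, 112 were already higher, 92 were partly higher, 64 were level and 9 were opposite. Across all genes the differences in Cy3 and Cy5 had a Pearson r of 0.60, given as a description because the channels share their arrays and genes are not replicates. Conversely, 137 of the 247 genes lower in Cy3 and 102 of the 214 higher in Cy3 did not reach 2-fold in Cy5 in that direction.

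Serpinb2, Id1 and Smad7 were lower after serum although they were higher before it. Serpinb2, also known as plasminogen activator inhibitor-2, had Cy3 signals of 189 (control) and 379 (THOC5-depleted) and Cy5 signals of 3891 and 848. Its level after serum was therefore 4.59-fold lower, while its level before serum was 2-fold higher. Id1, a helix-loop-helix protein that blocks DNA binding of basic partners and is a direct BMP target, had Cy3 signals of 2026 and 4190 and Cy5 signals of 56171 and 25285. This is a difference of 1.05 without serum and of -1.15 with serum. Smad7, which inhibits TGF-beta receptors, had Cy3 signals of 353 and 751 and Cy5 signals of 5785 and 2460. In each of these genes the order of the conditions was turned round within the hour of stimulation. By Cy5 difference, the other leading opposite genes were Mmp10, Pramel39, Agbl3 (-1.55), which encodes a carboxypeptidase of tubulin, and Ret.

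Fos went the other way. It is an immediate early gene whose protein pairs with Jun in AP-1. In Cy3 its signal was 95.1 in control cells and 1.13-fold higher after depletion. In Cy5 it was 4965 and 10039. Its probe was printed as 10 spots, and the log2 difference in Cy5 of 1.02 had a standard error of 0.022 within the arrays. Fos was thus induced on both arrays and was 2.02-fold higher in stimulated THOC5-depleted cells. This value lies at the limit of the call and was 0.99 with normexp correction, 0.72 without scaling and 0.57 with the spike-in probes set to no difference.

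Promoters were compared because these serum-responsive genes differed in opposite directions. The 250 bases before the start, from RefSeq on GRCm38.p6, are given for Mmp10 (chr9:7502092-7502341, plus strand) and Serpinb2 (chr1:107511173-107511422, plus strand), which were lower, and for Fos (chr12:85473640-85473889, plus strand), which was higher. For Serpinb2 the more upstream of its starts was taken. Capitals mark matches to the letters of an AP-1 site, TGANTCA. They also mark the letters of a TATA box, which are TATAAA, and those of a GC-rich site of Smad proteins, which are GGCGCC.
Mmp10: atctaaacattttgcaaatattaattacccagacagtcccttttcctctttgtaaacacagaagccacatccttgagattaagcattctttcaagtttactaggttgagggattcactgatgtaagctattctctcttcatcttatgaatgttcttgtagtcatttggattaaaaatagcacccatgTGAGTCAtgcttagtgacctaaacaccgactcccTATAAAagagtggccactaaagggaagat
Serpinb2: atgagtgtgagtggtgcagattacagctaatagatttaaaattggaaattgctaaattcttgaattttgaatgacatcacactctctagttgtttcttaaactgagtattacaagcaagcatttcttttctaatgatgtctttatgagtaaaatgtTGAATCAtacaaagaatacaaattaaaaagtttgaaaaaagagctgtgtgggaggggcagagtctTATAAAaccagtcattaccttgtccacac
Fos: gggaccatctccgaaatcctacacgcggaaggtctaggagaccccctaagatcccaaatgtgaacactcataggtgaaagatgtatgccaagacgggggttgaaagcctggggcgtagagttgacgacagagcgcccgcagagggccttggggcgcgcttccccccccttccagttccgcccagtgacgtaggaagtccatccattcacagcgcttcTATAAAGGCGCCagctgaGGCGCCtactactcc

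The windows of Mmp10 and Serpinb2 held an AP-1 match 63 and 94 bases before the start and a TATA match 29 bases before it. The window of Fos held a TATA match 33 bases before the start and GC-rich matches 27 and 15 bases before it, and no AP-1 match. Mmp10 and Serpinb2 do not stand for all lower genes. The windows of Csf2 and Il11, which were lower, and of Zfp763, which was higher, held none of these letters. The same letters were sought on both strands of all windows of 300 bases (250 before to 50 after the start). A window can hold more than 1 motif, and a gene can have more than 1 start. AP-1 letters were in 26 of 216 windows of lower genes (12%), in 31 of 218 windows of higher genes (14.2%) and in 5.64% of the 14035 windows of all genes compared. TATA letters were in 15.7% of windows of lower genes, 11.5% of windows of higher genes and 8.44% of all. Among higher genes the AP-1 letters were in 15 of 89 windows of genes already higher and 14 of 68 of genes partly higher, but in 2 of 51 of level genes (3.92%) and 0 of 10 of opposite genes. Among lower genes they were in 9 of 86 (already), 5 of 54 (partly), 9 of 61 (level) and 3 of 15 windows (opposite). In the whole table of 32851 windows the share of AP-1 letters was 7.81%. The CRE letters TGACGTCA were in 2.78% and 2.29% of windows of lower and higher genes against 2.87% over all genes compared, the E-box letters CACGTG in 8.33% and 6.42% against 9.55%, and the GC-rich letters in 19.9% and 14.2% against 19.5%. The SRF letters CCATATTAG were in no window of a called gene and in 8 of all 14035. They are 9 bases of an SRF site and were in 0.103% of the whole table of windows. Their absence therefore says little about SRF sites, and sequence further upstream was not searched. These shares describe letters only and were not tested.

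The lowest genes after serum were mostly genes that serum induced in control cells. Penk, which encodes the precursor of enkephalin peptides, had Cy5 signals of 1558 (control) and 117 (THOC5-depleted), the lowest ratio among the genes that met the rule (-3.73). Csf2, the granulocyte-macrophage colony-stimulating factor, had 2117 and 212, with a difference of -3.32 and a standard error of 0.025 over the spots. Odaph, a gene of tooth enamel, had 892 and 102. All 3 genes were also lower without serum, by 2.03-fold, 1.91-fold and 1.39-fold, in the same order. Dusp2, a nuclear phosphatase of ERK, had Cy5 signals of 67043 and 9113 and was 3.34-fold lower in Cy3. Lce1f, a gene of the cornified envelope, had 1132 and 193. The remaining lowest genes besides Thoc5 and those described next were Vmn1r62, H19, Pdgfb, Lif, Mmp10 and Pramel39, with differences from -2.46 to -2.25.

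Among the 82 lower genes that were level without serum, 70 rose by 2-fold or more with serum in control cells, and 50 of these did so on the control array only. Over all genes compared, 414 (2.4%) rose with serum on the control array and 131 (0.76%) after THOC5 depletion. The ratio shares its Cy5 signal with the call, so these counts describe the class and do not support it. Il11, a cytokine of the IL-6 family, had Cy3 signals of 136 and 114 and Cy5 signals of 1846 and 294. Wnt11, a ligand of the non-canonical Wnt pathway, had 190 and 162 in Cy3, and 935 and 177 in Cy5. Hes1, a transcriptional repressor downstream of Notch, had 118 and 134 in Cy3, and 1428 and 294 in Cy5. These 3 genes were 6.29-fold, 5.27-fold and 4.86-fold lower with serum and differed by at most 1.2-fold without it. Next in this class came Kctd11 (-2.15), LOC100045823 (-2.07), 5830403F22Rik (-1.91), D13Ertd787e (-1.91, and -0.51 by a second probe), the sphingosine kinase Sphk1 (-1.91), the cullin Cul9 (-1.85) and Tmem88 (-1.75). The median serum ratio of the class was 3.53 on the control array and 1.31 after THOC5 depletion.

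**Figure D2:**
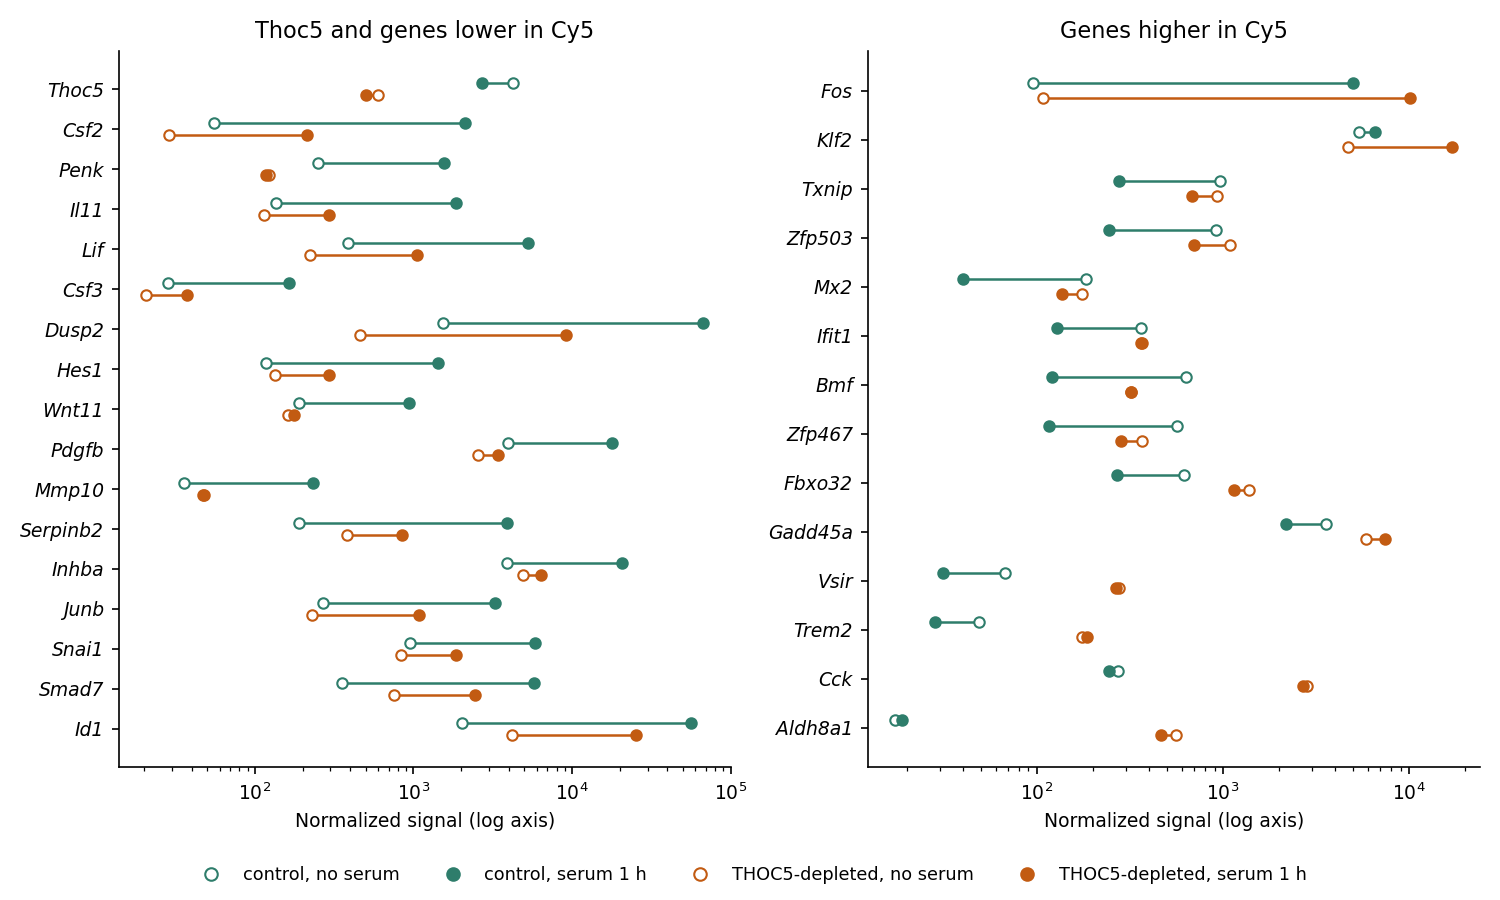
Normalized signal (log axis) of Thoc5, 16 lower genes and 14 higher genes in the 4 channels, with open circles for unstimulated and filled circles for stimulated cells, green for control and orange for THOC5-depleted cells (1 array each). Il11 and Hes1 start at similar levels and end apart, whereas Thoc5, Cck and Aldh8a1 are already apart without serum.

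Several secreted signalling proteins were among the lower genes. The list of IL-6 family cytokines, colony-stimulating factors and other cytokines had 10 members that met the rule, of which 6 were lower and 2 were higher, against 1.62% and 1.61% of all genes, with a median of -1.27 against -0.0011. Lif, which keeps stem cells undifferentiated, had Cy5 signals of 5256 and 1053. Csf3, the granulocyte factor, had 163 and 37.3. Clcf1, a ligand of the ciliary neurotrophic factor receptor, had 1571 and 546, and Csf1, the macrophage factor, had 32811 and 16283. A second probe for Csf1 gave a difference of 0.033, so that the value for this gene rests on its brighter probe. Il6 and Il33, the second of which belongs to the IL-1 family, were higher with serum (1.09 and 1.44) and also without it (1.54 and 1.51). Of the 12 chemokines, Cxcl12 alone was called. It was lower in Cy5 (-1.59) and in Cy3 (-1.30). None of 14 feedback genes of NF-kB reached 2-fold.

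Among the listed genes that met the rule, growth factors and the feedback genes of their signalling had lower members and no higher ones. Of 19 growth factor genes, 4 were lower and none was higher, against 1.62% and 1.61% of all genes. Pdgfa, one chain of platelet-derived growth factor, had 5795 and 6459 in Cy3, and 25104 and 8192 in Cy5. Pdgfb, the other chain, had 3955 and 2551 in Cy3, and 17765 and 3435 in Cy5. For Pdgfa the loss was seen with serum only, whereas Pdgfb was partly lower before it, and second probes gave -1.67 and -2.78. Vegfa (-1.06), the vascular growth factor, was level without serum by its brightest probe, and a second probe gave -0.79 with serum and 1.29 without it. Angpt1 (-1.22) was already lower. Of 35 genes in the feedback of MAP kinase signalling, 7 were lower and none was higher, with a median of -0.31, against the same shares of all genes. Besides Dusp2 they comprised Dusp5 (-1.95), another ERK phosphatase, the Ras pathway inhibitors Spry2 (-1.36) and Spry4 (-1.22), the EGF receptor ligand Hbegf (-1.32), the receptor inhibitor Errfi1 (-1.15) and Ier5 (-1.32). For Ier5 a second probe gave -2.75 with serum and -1.43 without it, where the brightest probe gave 0.24 without serum. Errfi1 was 1.94-fold higher without serum and is a further opposite gene.

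Genes of BMP and TGF-beta signalling with lower levels included Id proteins, inhibitors and ligands. Of 43 members, 8 were lower and 1 was higher, against 1.62% and 1.61% of all genes. They comprised 2 of 4 Id genes, 3 of 13 inhibitory Smads and membrane inhibitors, 2 of 8 ligands and 1 of 5 other targets. Id3, the relative of Id1, had Cy3 signals of 1474 and 1687 and Cy5 signals of 11767 and 5677. Inhba, which encodes the subunit of activin A, had 3869 and 4936 in Cy3, and 20689 and 6359 in Cy5. Both were level without serum and lower after it. The corepressor Skil (-1.13) and Pmepa1 (-1.19), which interferes with Smad activation, were level without serum by their brightest probes. A second probe for Skil gave -0.092 with serum and 1.64 without it. For Pmepa1 a second probe gave -1.24 with serum and -0.29 without it. Bmp2 (-1.34) and Tgfbi (-1.05) were already lower without serum, and Gdf15 (1.05) was already higher. None of 13 receptors and signal-transducing Smads reached 2-fold, with values from -0.54 to 0.35, and the difference between these groups was not tested.

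Among the listed proteases and matrix-modifying enzymes that met the rule, those that reached 2-fold were lower. With 75th percentile scaling 1 listed gene was higher. Genes that did not meet the rule went both ways. By the bounds defined at the end, the metalloprotease gene Mmp27 was at least 2-fold higher and the coagulation factor gene F11 at least 2-fold lower. Of 30 genes of coagulation, proteolysis and matrix remodelling, 6 were lower and none was higher, against 1.62% and 1.61% of all genes. Mmp10, the protease stromelysin-2, had 35.8 and 47.1 in Cy3, and 233 and 48.1 in Cy5. Mmp13, a collagenase, had 489 and 141 in Cy5 and was partly lower without serum. Timp1, an inhibitor of metalloproteases, had 21966 and 23119 in Cy3, and 61165 and 27342 in Cy5. The hyaluronan synthases Has1 (-1.25) and Has2 (-1.20) were level without serum. On the THOC5-depleted array the serum ratios of Mmp10 and Has2 were both 1.02, against 6.52 and 2.85 in control cells.

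Transcription factors differed from one another, and their counts stand beside 1.62% lower and 1.61% higher of all genes. Of 14 AP-1 genes, Junb was lower (Cy5 signals of 3258 and 1079), Fos was higher and 12 did not reach 2-fold. Of 16 Egr, Nr4a and Klf genes, Klf10 (-1.34) was lower, and Klf2 (1.37) and Klf11 (1.24) were higher. Klf2, which maintains quiescence of T cells, had Cy5 signals of 6543 (control) and 16937 (THOC5-depleted) although its Cy3 signals were 5349 and 4683. Egr1, Egr2, Nr4a1 and Nr4a2, the members of the Egr and Nr4a families that met the rule, did not reach 2-fold. Egr4 was above background in Cy5 on the control array alone (47.0 and 3.33) and in Cy3 on neither, with a bound of at least 3.72-fold lower, as defined for the genes of this kind at the end. Among 33 Notch and Wnt genes, 5 were lower, including Hes1, Wnt11, the Wnt inhibitor Dkk2 (-1.55), the Notch modifier Lfng (-1.33) and Sfrp2 (-1.30), and 2 were higher, namely the Notch ligand Dll4 (1.39) and Wnt4 (1.01). With normexp correction 2 of these genes were lower and 1 was higher. Of 11 mesenchymal regulators, Snai1 (-1.66), Sox9 (-1.45) and Foxc2 (-1.33) were lower and Runx2 (1.03) was higher. In the list of 30 SRF and actin cytoskeleton genes none was lower, while Actg2 (1.03) and Fhl1 (1.37) were higher with and without serum. Of this pair 1 passed with 75th percentile scaling and 0 with normexp correction.

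The list of RNA decay factors and small inducible regulators had 33 members, of which 6 were lower and 1 was higher, and this count and those of the clock and p53 lists stand beside the same 1.62% and 1.61% of all genes. Apart from Penk and Sphk1, the lower members were the neuronal activity gene Arc (-1.98), the receptor tyrosine kinase gene Ret (-1.44), the pseudokinase gene Trib1 (-1.14) and the small GTPase gene Rrad (-1.04). Trib2 (1.08) was higher with serum and level without it. None of the 8 Zfp36 and Btg genes, which promote mRNA decay, was called. Of 17 clock genes, Noct (-1.35) and the repressor Bhlhe40 (-1.06) were lower and Rora (1.33) was higher. Of 62 p53 and stress genes, Cdkn1a and Pmaip1 (-1.25) were lower, and Gadd45a (1.75), Osgin1 (1.61) and Trib3 (1.04) were higher. Cdkn1a, which encodes the inhibitor p21, was opposite. Its Cy3 signals were 229 and 386 and its Cy5 signals were 1622 and 810, at the limit of the call (-1.0, standard error of 0.022 over the spots).

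**Figure D3:**
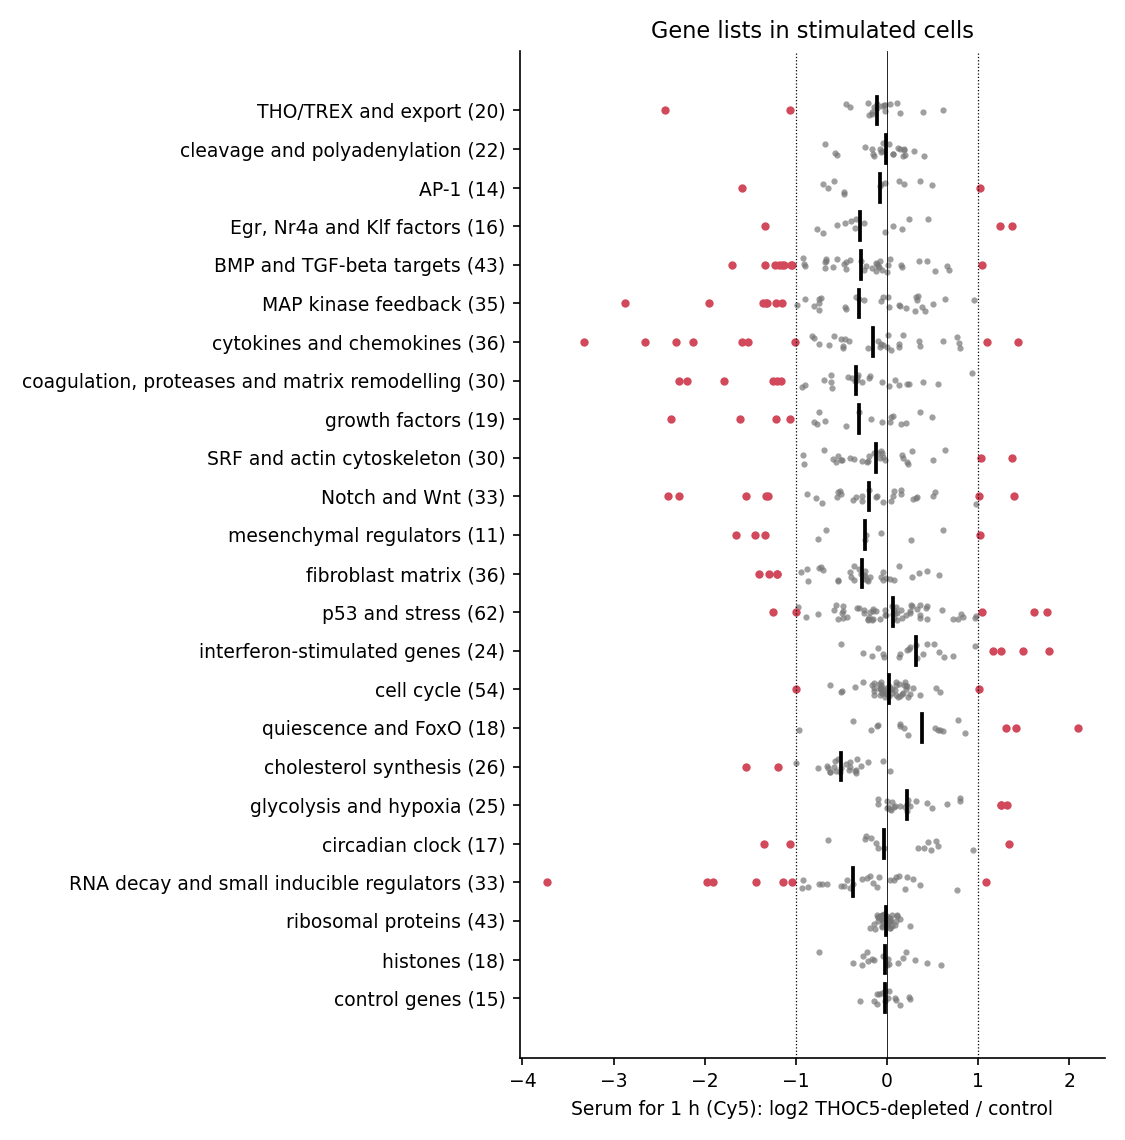
Log2 difference of THOC5-depleted over control in stimulated cells (Cy5) for each measured member of 24 gene lists, with the number of members in parentheses. Black bars are medians, dotted lines mark 2-fold and members at or past it are red. Ribosomal protein, histone and control genes have no member past 2-fold, while 6 genes of the cytokine list lie below -1.5.

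Another set of genes was lower both with and without serum. Of the 110 genes already lower, 102 responded to serum on neither array, where over all genes 16559 of 17240 did not respond in control cells, and the median serum ratio was 0.91 on the control array and 0.97 on the other. H19, an imprinted non-coding RNA, had Cy3 signals of 453 and 85.9 and Cy5 signals of 267 and 48.7. Mest, an imprinted gene of mesoderm, had a Cy5 difference of -2.18 and its second probe one of -2.03. Vmn1r62, a vomeronasal receptor gene, had 80.4 and 14.6 in Cy5, close to the background. Of 36 fibroblast matrix genes 4 were lower, against 1.62% of all genes, namely the collagens Col5a2 (-1.30), Col6a2 (-1.21) and Col5a3 (-1.20), which were already lower, and tenascin-C, Tnc (-1.40), which was partly lower. Of the 26 genes of cholesterol synthesis and transport, Cyp51 (-1.19) and Abca1 (-1.54) were lower, against the same share, the median was -0.51 in Cy5 and -0.23 in Cy3, and 25 of the 26 had a difference below 0. The markers Fap and Dpt of the fibroblast list were lower in both channels as well (-1.79 and -1.26 in Cy5). Of the 12 markers 9 had a Cy5 difference below 0, with -0.74 for Col3a1, -0.67 for Twist1 (Cy3 signals of 841 and 876), -0.47 for S100a4 and -0.39 for Pdgfra. It was above 0 for Thy1 (0.38), Col1a1 (0.14) and Vim (0.011). The summed Cy5 signal of the 12 markers was 329831 on the control array and 284179 after THOC5 depletion. The largest part of this difference was that of S100a4 (115120 and 83384). The part of these markers in the result was not tested.

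The highest genes after serum were in the main higher before it. Aldh8a1, an aldehyde dehydrogenase of retinoid metabolism, had Cy3 signals of 17.4 and 562 and Cy5 signals of 18.8 and 465, a difference of 4.63. Cck, the precursor of the peptide cholecystokinin, had 272 and 2822 in Cy3, and 245 and 2671 in Cy5. ND6, a subunit of complex I that is encoded on the light strand of mitochondrial DNA (probe at chrM:13552-13611, mm9), had 218 and 4116 in Cy3, and 304 and 3155 in Cy5. For Aldh8a1 and Cck the difference was of similar size with and without serum, whereas that of ND6 was 4.24 without serum and 3.38 with it. Vsir, an immune checkpoint protein, had 31.3 and 267 in Cy5, but its second probe gave a difference of 0.29. Trem2, a receptor of myeloid cells, had 28.3 and 187 in Cy5. The other highest genes were Sptlc3, Shroom4, Ell3, Sprr2g, LOC640171, Izumo1r, Fam71f2, BC052486, Gm7968 and Klhl24, with differences from 2.58 to 2.13. Klhl24 was partly higher without serum, and its second probe gave 0.25. Of the 8 markers of macrophages and blood examined, 3 were above background on both arrays, and the sum of all 8 in Cy5 was 7848 on the control array and 10256 after THOC5 depletion. Of these 3, Itgam had 7283 and 9686, Csf1r had 495 and 474, and Hba-a1 had 36.4 and 33.5, so that nearly all of the difference between the sums was that of Itgam. Ptprc (5.26 and 15.2), Adgre1 (10.4 and 13.1) and Cd68 (11.2 and 27.3) were above background on the THOC5-depleted array alone, and Lyz2 was on neither. The sums of muscle (3371 and 4730), neural (9485 and 11847), pluripotent (535 and 591) and adipocyte markers (136 and 233) were also higher. Those of epithelial (349 and 312) and endothelial markers (1057 and 1044) were lower. The part of these markers in the result was not tested.

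The higher genes that were level or opposite without serum were mostly genes that serum turned down in control cells. Of the 64 level genes, 40 fell by 2-fold or more with serum in control cells and 38 of these did so there only, and all 9 opposite genes fell in control cells. Over all genes, 267 (1.55%) fell on the control array and 37 (0.215%) fell after THOC5 depletion. As for the lower genes, the serum ratio shares its signals with the call, so these counts describe the classes and do not support them. Mx2, an interferon-induced GTPase, had Cy3 signals of 184 and 174 and Cy5 signals of 39.9 and 137. Zfp763, a zinc-finger gene, had 127 and 125 in Cy3, and 23.9 and 87.6 in Cy5. Ifit1, an interferon-induced RNA-binding protein, had 361 and 367 in Cy3, and 128 and 361 in Cy5. The serum ratios of Mx2, Zfp763 and Ifit1 were 0.22, 0.19 and 0.36 on the control array, and 0.79, 0.70 and 0.98 after THOC5 depletion. The others of the 10 named in this class were Gm10621 (2.00), 2610008E11Rik (1.78), 4732460I02Rik (1.61), Zfp503 (1.52), Zkscan14 (1.47), D230044B12Rik (1.43) and 4731419I09Rik (1.40), of which Gm10621 was near background. Among the opposite genes, Bmf, a BH3-only protein that promotes apoptosis, had 635 and 321 in Cy3, and 120 and 320 in Cy5. The others with the largest values were Zfp273 (1.76), Ccny (1.42), Zfp3 (1.34) and Zfp467 (1.28), the last with 0.50 by a second probe.

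Of 24 interferon-stimulated genes 4 were higher and none was lower, against 1.61% and 1.62% of all genes, shares that also stand beside the next 2 lists. Besides Mx2 and Ifit1 they were Rsad2 (1.25) and Cmpk2 (1.17), and the median of the list was 0.32 in Cy5 and -0.31 in Cy3. Of 18 genes of quiescence and FoxO signalling 3 were higher and none was lower, with a median of 0.38. Txnip, which inhibits thioredoxin and glucose uptake, had 961 and 926 in Cy3, and 275 and 682 in Cy5, with a difference of 0.76 by a second probe. Fbxo32, a ubiquitin ligase of muscle atrophy, had 613 and 1380 in Cy3, and 268 and 1147 in Cy5. With the spike-in probes set to no difference both medians became slightly negative, -0.066 for the interferon list and -0.0089 for the quiescence list. Of 25 glycolysis and hypoxia genes, Egln3 (1.32), Ero1a (1.26) and Ankrd37 (1.25) were higher, and were higher without serum by 1.70-fold or more.

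**Figure D4:**
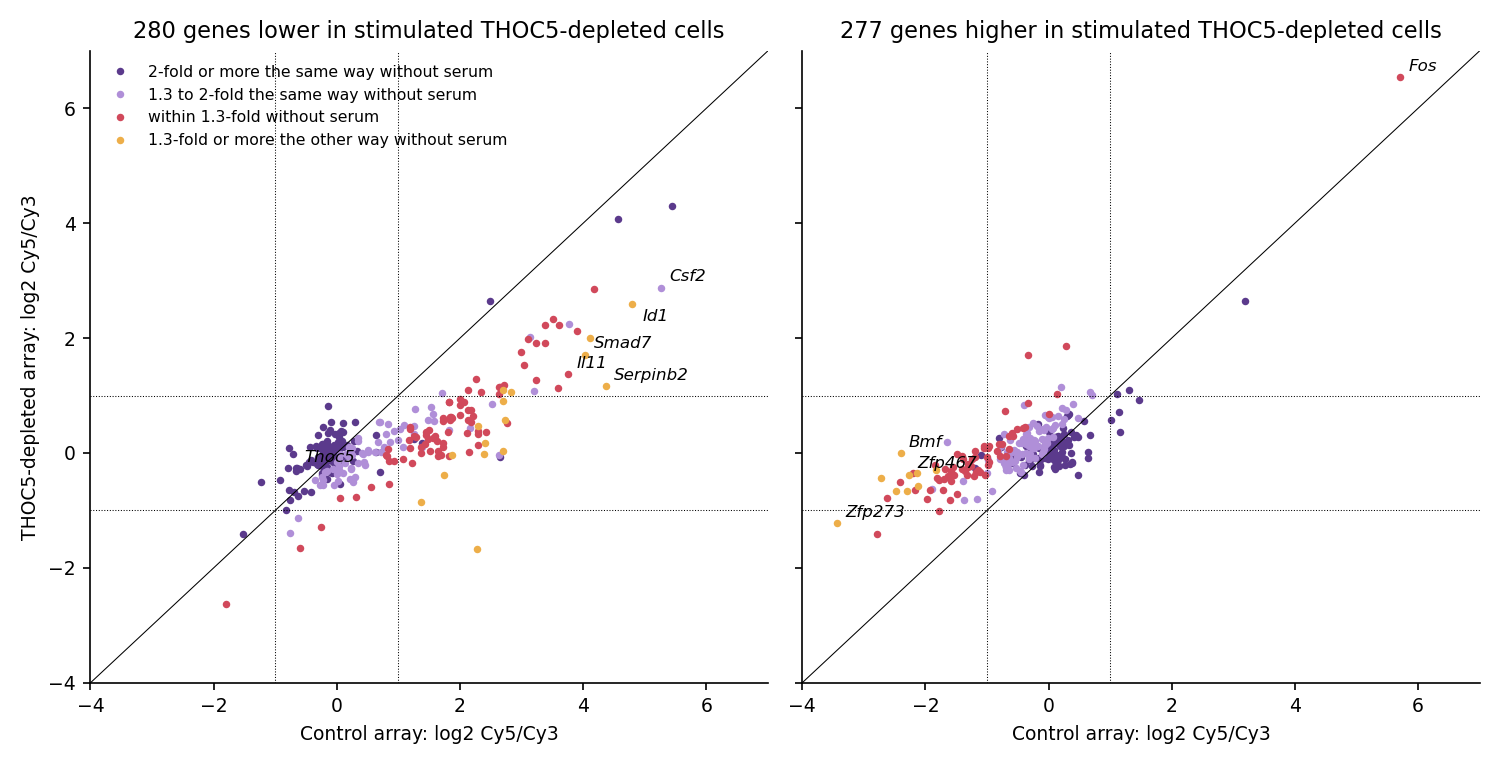
Log2 Cy5/Cy3 ratio on the THOC5-depleted array (vertical) against that on the control array (horizontal) for the 280 lower (left) and 277 higher genes (right), coloured by their difference without serum. Genes level or opposite without serum lie below the diagonal on the left, where 70 of the 82 level and all 16 opposite genes rose 2-fold or more in control cells, and above it on the right. Their side of the diagonal follows from how the classes were defined.

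The comparison was also read from the serum response of control cells, which shares the control signals with it. Of the 414 genes that rose with serum in control cells, 112 (27.1%) were lower and 8 (1.93%) were higher in stimulated THOC5-depleted cells, and 339 had a difference below 0. Their median difference was -0.59 in Cy5 and 0.27 in Cy3. Of the 267 genes that fell, 57 (21.3%) were higher and 3 (1.12%) were lower, with a median of 0.65 in Cy5 and -0.29 in Cy3. Among the 16559 genes that did neither, 165 (0.996%) were lower and 212 (1.28%) were higher.

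Subunits of the complex itself and of the cleavage machinery were examined next, beside 1.62% lower and 1.61% higher of all genes. Of the 6 THO core genes, Thoc1 (209 and 100 in Cy5, 169 and 69.2 in Cy3) was 2.09-fold lower beside Thoc5. The value of Thoc1 fell short of 2-fold with 75th percentile scaling (-0.99), with background-subtracted signals (-0.96) and with normexp correction (-0.82). The values of Thoc2, Thoc6, Thoc3 and Thoc7 were -0.46, -0.41, -0.20 and -0.024. None of 14 TREX partners and export receptors was called, and the largest value was 0.61 for the helicase gene Ddx39b. None of 22 genes of cleavage and polyadenylation was called, which is near those shares. In the CPSF complex, which recognizes the polyadenylation signal and cuts the transcript, the values were -0.15 for Cpsf1, -0.68 for Cpsf2, -0.061 for Cpsf3, -0.24 for Cpsf4, 0.30 for Fip1l1, -0.57 for Wdr33 and 0.069 for Sympk. Cpsf2 and Wdr33 were also the lowest of the complex without serum, at -0.82 and -0.61.

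Genes of basic cell functions were read beside the 96.8% of all genes that lay within 2-fold. The 43 ribosomal protein genes lay between -0.18 and 0.26, the 18 histone genes between -0.74 and 0.59, and the 15 control genes between -0.29 (Tfrc) and 0.26 (B2m), with 0.088 for Gapdh and -0.020 for Actb. The histone gene H1f3, above background on the control array alone, lies outside this range and is given with the bounds. Of 54 cell cycle genes, E2f2 (1.00) was higher and Cdkn1a was lower, near the 1.61% and 1.62% of all genes, and 17 mitotic genes lay between -0.14 and 0.37.

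The calls were compared with a second probe where the array had one that met the rule. Of 34 lower genes with such a probe, 19 were lower by 2-fold or more by it and 30 had a difference of the same sign, with a median of -1.15 beside -1.20 for the brightest probe. Of 37 higher genes, 14 were higher by 2-fold or more and 31 had the same sign, with a median of 0.61 beside 1.27. The difference between these shares was not tested. The share of called genes also varied with brightness. Where the brighter Cy5 signal was under 100, 2.51% of genes were lower and 2.57% were higher. From 100 to 200 the shares were 2.49% and 4.41%, from 200 to 1000 they were 1.82% and 1.87%, and above 1000 they were 0.959% and 0.504%.

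**Figure D5:**
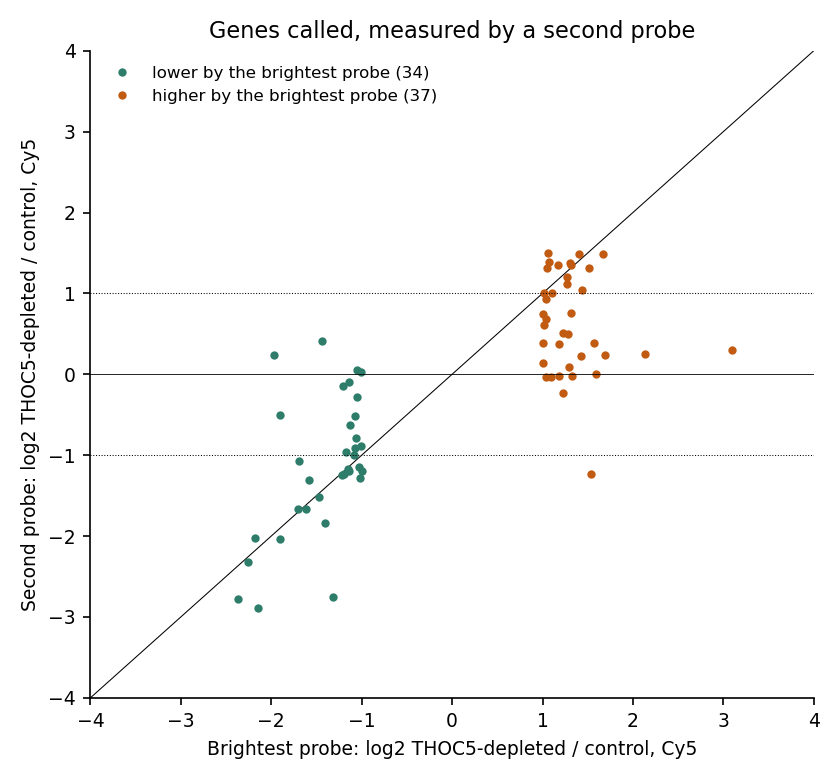
Log2 difference of THOC5-depleted over control in Cy5 by the second brightest probe (vertical) against the brightest probe (horizontal) for 34 lower and 37 higher genes with 2 probes that met the rule. Dotted lines mark 2-fold, 19 of 34 lower genes lie at or below the lower line, and 14 of 37 higher genes lie at or above the upper line.

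Genes with Cy5 above background on only 1 array have a bound in place of a difference. The bright signal was divided by the lowest signal called well above background on the other array, or by the dim probe's own signal if that was higher. Of the 530 genes seen on the control array alone, 126 were at least 2-fold lower in THOC5-depleted cells. Skida1 was at least 49.9-fold lower, with Cy5 signals of 631 and 3.56, and Cplx4, AY512915, Samt1 and H1f3 followed at 18.3-fold to 6.91-fold. Of the 696 genes seen on the THOC5-depleted array alone, 168 were at least 2-fold higher. Mageb16 was at least 26.8-fold higher, with signals of 3.12 and 355, followed by 2010001M06Rik, Lypd4, Vmn1r54 and Gm7341 at 21.5-fold to 16.1-fold. In all 10 genes Cy3 was above background on the same array as Cy5, and Skida1 had Cy3 signals of 647 and 3.25.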

How the data were processed

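RNA of unstimulated (Cy3) and serum-stimulated (Cy5) cells of either condition was hybridised to 1 dual-color Agilent array per condition, both with the same scan time. The deposited intensity values are background-subtracted and dye-normalized processed signals of Feature Extraction 10.7.3.1, and the deposited log10 ratio of red over green per spot, per the file headers, follows from them. The table of the authors' values per spot, ratio sizes without a sign, was not used. All sample columns were mapped and 0 were left unmapped.

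Spots flagged as outliers and control spots were left out, spots of a probe were averaged, and mean log signals were quantile-scaled between arrays (Aquantile, limma 3.58.1 in R 4.3.3), with further steps in Python 3.11.15, numpy 2.4.6 and pandas 2.3.3. A gene took its brightest probe. Of 35777 probes with a symbol, 26412 were matched by accession to RefSeq and 3093 were renamed. Probe positions are mm9. Differences of 2-fold were called without a test, since each condition has 1 array, and 1.3-fold marked a level gene in Cy3. Calling was tested on simulated data. Named genes were Thoc5, Serpinb2, Id1, Smad7 and Fos, the 15 lowest and 15 highest, the 10 largest differences in either direction among level genes, 5 among genes already different and up to 5 among opposite genes, up to 6 members of each list with 3 or more called, the THO, CPSF and control genes, and 5 bounds in either direction. Other genes, such as members of lists with fewer calls, were named after their values were seen. The members and lists were chosen with earlier results of these data known. Alternatives comprised other scalings, background corrections, limits, filters and probe rules.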

Additional observations from a re-analysis of the deposited data

Results flagged for a closer look

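In 5 genes the difference between THOC5-depleted and control cells had opposite directions without and with serum, by 2-fold or more each time. After serum the log2 differences were -2.25 for Pramel39, -2.20 for Serpinb2, -1.23 for Smad7, -1.15 for Id1 and -1.03 for Hoxb8, whereas all 5 were higher in unstimulated THOC5-depleted cells. Without serum the differences of Serpinb2 (1.00), Id1 (1.05) and Smad7 (1.09) lay near the limit. The Cy3 differences of single genes were not recomputed under other scalings. With 1 array per condition the difference between the unstimulated and the stimulated comparison was not tested.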

How the results depend on the processing

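The counts of lower and higher genes, and of those level or already different without serum, were recomputed under up to 14 settings, and 49 of 82 values stayed within 1.5 times. Without scaling, 522 were lower (230 already lower) and 149 higher (29 level, 62 already higher). With normexp background correction the counts were 149 lower (39 already lower) and 109 higher (24 level, 44 already higher). A limit of 1.5-fold gave 926 lower (346 level, 417 already lower) and 1020 higher (391 level, 428 already higher), and a limit of 3-fold gave 65 (19 and 20) and 52 (5 and 20). With a Cy5 signal of 200 or more the counts were 148 lower (43 already lower) and 113 higher (27 level, 45 already higher). With spike-in scaling, chosen after seeing the data, they were 859 lower (265 level, 234 already lower) and 90 higher (12 level, 55 already higher). The cause of these shifts was not tested, except that the limits and the signal filter by construction admit other genes. Of 140 genes followed under 7 settings of scaling or background, none reversed, and 40 fell short of 2-fold under at least 1 of these, 27 of them under settings other than normexp. List counts were recomputed under 3 of these settings. With normexp the higher members fell to 0 for AP-1, BMP and TGF-beta, SRF, mesenchymal, clock, RNA decay and cell cycle genes, and to 1 for Egr, Nr4a and Klf, cytokine and Notch and Wnt genes. The lower members fell to 2 for Notch and Wnt genes, to 1 for THO and TREX and for p53 and stress genes, and to 0 for cell cycle genes. With each channel quantile-normalized alone, p53 and stress genes had 1 lower member and cell cycle genes 0 called. With 75th percentile scaling, THO and TREX genes had 1 lower member, SRF genes 1 higher and protease genes 1 higher. No paired analysis was possible because each condition has 1 array. Dim genes are limited by signal over background, and the spread between cultures is unknown.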

Other observations

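Numbered zinc-finger genes (Zfp, Zkscan and Zscan symbols), most of which encode DNA-binding proteins, were examined after their values had been seen, and no test was made. Of 321 such genes that met the rule, 18 (5.61%) were higher and 0 were lower in stimulated THOC5-depleted cells, against 1.61% and 1.62% of all genes. Among those above background in Cy5 on 1 array alone, 5 were at least 2-fold lower, 4 of them Zscan4 genes with Zscan4f at least 4.30-fold lower, and 4 were at least 2-fold higher, with Zfp39 at least 3.21-fold higher. Of the 321 genes, without serum 0 were higher and 3 were lower. The median difference was 0.29 with serum and -0.07 without it. In control cells 62 of them fell 2-fold or more with serum, which is 23.2% of the 267 genes that fell, whereas they are 1.86% of all genes compared. In THOC5-depleted cells 3 fell. Second probes gave 1.32 for Zfp503, 0.75 for Zfp386, 0.61 for Zfp955b, 0.51 for Zfp595, 0.50 for Zfp467 and -0.03 for Zfp457.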
